A study of Mus musculus with 6 samples.

Results

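The lysosome is the acidic compartment in which cells break down proteins, glycans and lipids. Its hydrolases work at low pH, which the vacuolar proton pump (V-ATPase) maintains across the limiting membrane. MiT/TFE transcription factors, among them TFEB, TFE3 and MITF, bind short E-box motifs in the promoters of many lysosomal genes. In the marrow, macrophages, monocytes and granulocytes are rich in lysosomes, while megakaryocytes make lysosomes and the lysosome-related dense granules that pass to platelets. The genes described here are a list of 36 covering membrane proteins, hydrolases with their activators, lysozymes, pump subunits and MiT/TFE factors. They were found by gene symbol on an expression array, and where a gene had several rows on the array the row with the highest mean was used. Of the 36, 35 were measured, among 30063 genes in all. Glb1, the gene of beta-galactosidase, lies on a row that also carries another gene's symbol and was not analysed here.

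The samples are megakaryocytes sorted from the bone marrow of female C57 mice with acute myeloid leukaemia (AML) induced by the fusion oncogene MLL-AF9 (3 arrays) and of healthy control mice of the same sex and strain (3 arrays). Both groups were gated for polyploid cells with high CD41, the platelet integrin, high side scatter and at least 8N DNA, and went from the sorter straight into Trizol. How the fusion gene was introduced is not given in the labels. The labels call the arrays biological replicates and give neither animal numbers nor ages, so a p-value reflects how much these samples vary, which may be technical in part. The arrays are called AML 1 to 3 and control 1 to 3. All values are the deposited log2 expression values, all differences are AML minus control in log2 units, ± gives the SD (n = 3 arrays per group), and a gene is said to rise or fall where limma's p, adjusted over all genes, was at most 0.05.

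Ppbp, a platelet chemokine gene, stood at 12.23 ± 0.16 in AML and 12.37 ± 0.17 in control, and Pf4, another, at 11.98 ± 0.22 in AML and 12.09 ± 0.12 in control. Of 10 measured megakaryocyte markers 0 passed the threshold in limma, 0 also at an unadjusted p under 0.05. Their median difference was +0.22, and only Ppbp and Pf4 of these 10 had differences below 0. The median gene differed by +0.11, and by +0.03 among genes at or above the median level. Differences relative to that shift are given where named.

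Lysosomal genes stood mostly lower in the AML sorts. Of the 35 measured, 11 fell and 1 rose, and 23 did not pass. Over all genes tested 6.25% fell and 4.49% rose, and among genes at or above the median level, to which 34 of the 35 belong, 11.2% fell and 5.09% rose. At an unadjusted p under 0.05, 21 of the 35 were lower and 3 higher, against 11.8% lower and 21.0% higher over all genes and 20.4% and 18.9% among genes at or above the median level. The median difference was -0.32, or -0.43 relative to the median gene, and 29 of the 35 differences were below 0. All 3 AML values lay below all 3 control values in 21 of the genes and above them in 3. Over all genes such separation was found downward in 13.1% and upward in 28.2%, and among genes at or above the median level in 22.3% and 23.3%. The count of falls was 6 without AML 2, 5 without control 2 and 5 without control 3, when 3.56%, 2.6% and 2.73% of all genes fell. The number of arrays limits the precision.

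**Figure D1:**
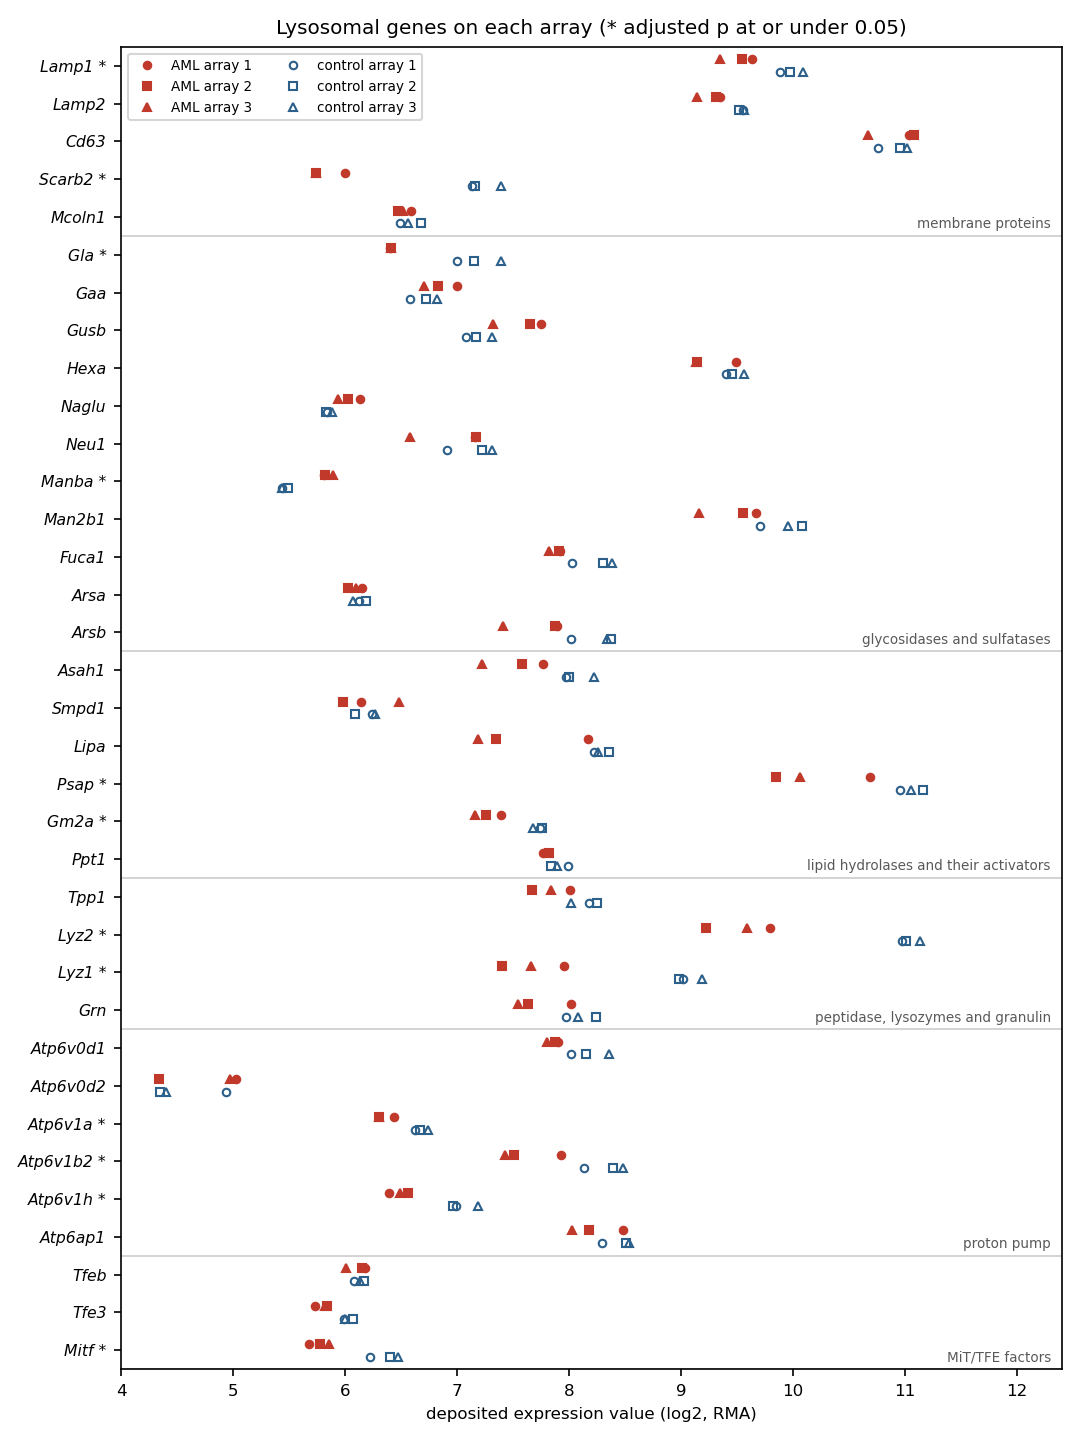
Deposited log2 expression value (horizontal axis) of each of the 35 lysosomal genes, with the 3 AML arrays as filled red symbols above and the 3 control arrays as open blue symbols below each line; grey rules part the roles and a star marks an adjusted p at or under 0.05. The AML symbols of Scarb2, Gla, Lyz2 and Lyz1 stand clear to the left of the control symbols, while those of Cd63, Tfeb and Mcoln1 overlap.

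Promoter sequences of 32 of the 36 listed genes were at hand in RefSeq (mouse build GRCm38.p6, from 250 bases before to 50 after each annotated start). They were searched on both strands for the E-box CACGTG, which reads the same on both strands, for the longer forms TCACGTG and TCACGTGA that contain it, and for the last of these with G before it and C after it, a 10-base palindrome known from lysosomal promoters. CACGTG was found in 9 of the 32 genes (28.1%), against 8.09% of 27025 genes, and each of the 9 also held TCACGTG (4.29% of all genes). These were Arsa, Atp6v0d1, Atp6v1a, Gaa, Gla, Glb1, Lamp1, Mcoln1 and Naglu. TCACGTGA was found in 4 genes (12.5%, against 1.12%), and the 10-base form in 0, against 0.37% of all genes. Of the 10 genes past the threshold that have a promoter entry, 3 held CACGTG, and of 21 measured genes not past it, 5 did, so the motif was found on both sides. A match describes letters only.

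The 250 bases before the start are shown for the 3 genes that fell and hold the E-box, and for Mcoln1, which holds it and did not pass. Capitals mark CACGTG with the T before it or the A after it where present.
Gla, GRCm38.p6 chrX:134601006-134601255, minus strand: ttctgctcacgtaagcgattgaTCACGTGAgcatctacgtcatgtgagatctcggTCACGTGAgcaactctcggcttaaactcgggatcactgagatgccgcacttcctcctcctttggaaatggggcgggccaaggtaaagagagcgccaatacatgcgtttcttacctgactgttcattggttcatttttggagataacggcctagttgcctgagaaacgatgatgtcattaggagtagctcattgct
Lamp1, GRCm38.p6 chr8:13158911-13159160, plus strand: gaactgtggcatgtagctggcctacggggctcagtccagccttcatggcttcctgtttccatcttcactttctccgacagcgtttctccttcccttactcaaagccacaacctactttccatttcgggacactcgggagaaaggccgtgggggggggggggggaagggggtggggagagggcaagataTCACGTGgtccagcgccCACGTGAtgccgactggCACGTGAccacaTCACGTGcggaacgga
Atp6v1a, GRCm38.p6 chr16:44139260-44139509, minus strand: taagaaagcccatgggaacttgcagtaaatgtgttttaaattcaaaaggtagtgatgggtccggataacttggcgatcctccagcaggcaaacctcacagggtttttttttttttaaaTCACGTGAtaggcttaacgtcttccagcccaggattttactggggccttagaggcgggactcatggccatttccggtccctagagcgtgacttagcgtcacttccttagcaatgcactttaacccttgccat
Mcoln1, GRCm38.p6 chr8:3500269-3500518, plus strand: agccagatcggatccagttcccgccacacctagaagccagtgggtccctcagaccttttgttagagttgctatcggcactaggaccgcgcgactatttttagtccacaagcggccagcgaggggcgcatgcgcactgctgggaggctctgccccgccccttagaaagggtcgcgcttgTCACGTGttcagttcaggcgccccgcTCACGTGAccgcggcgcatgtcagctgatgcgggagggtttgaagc
Lamp1 held 4 E-boxes that begin 61, 45, 28 and 15 bases before the start, counted to the first base of CACGTG. The 2 of Gla were farther away, at 227 and 194 bases, that of Atp6v1a lay at 131 bases, and those of Mcoln1 at 71 and 45 bases.

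Among membrane proteins, 2 of 5 fell and 0 rose (0 at an unadjusted p under 0.05), with a median difference of -0.28. Scarb2 encodes LIMP-2, which carries the enzyme glucocerebrosidase to the lysosome. It stood at 6.0, 5.74 and 5.74 on AML 1, 2 and 3 in turn, against 7.13, 7.16 and 7.39 on the control arrays. Every AML value was more than 1 unit below every control value. The fall of 1.40 (SE 0.11, a 2.64-fold lower level, adjusted p = 0.000949) passed in all 13 alternative analyses. Lamp1, a glycoprotein that lines the lysosomal membrane, had 9.63, 9.54 and 9.35 in AML, against 9.88, 9.97 and 10.09 in control. The groups did not overlap, and Lamp1 fell by 0.48 (SE 0.10, adjusted p = 0.0288). This call was lost without AML 2, control 2 or control 3 and with the replicate number as a block (adjusted p 0.0737 to 0.108).

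Lamp2, its close relative, which also takes part in autophagy, did not pass at 9.27 ± 0.11 in AML and 9.54 ± 0.02 in control (adjusted p = 0.0704). It passed with median centring (adjusted p = 0.0308) and with array weights (0.0423). Cd63, a tetraspanin of late endosomes and of platelet dense granules, stood at 10.93 ± 0.22 in AML and 10.91 ± 0.14 in control. Its difference of +0.02 has a 95% interval of -0.29 to 0.32, and the sign turned with median centring (-0.10). Mcoln1, the lysosomal calcium channel TRPML1, stood at 6.53 ± 0.06 in AML and 6.58 ± 0.10 in control (adjusted p = 0.647). Unlike Lamp1 and Scarb2, both had overlapping groups.

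Hydrolases and their activators passed in both directions. Of 20 (glycosidases, sulfatases, lipid hydrolases with their activators, the peptidase gene Tpp1 and the lysozymes), 5 fell and 1 rose. The falls numbered 3 without AML 2, without control 2 or without control 3. Glycosidases and sulfatases were the role with calls in both directions, with 1 fall and 1 rise among 11, and 4 lower and 3 higher at an unadjusted p under 0.05. The share that fell, 9.09%, lay near the 11.2% of genes at or above the median level, to which all 11 belong, and 5.09% of those rose. At an unadjusted p under 0.05, 20.4% of genes at or above that level were lower and 18.9% higher. Gla encodes alpha-galactosidase A, which removes terminal galactose from glycolipids and is deficient in Fabry disease. Its values were 6.40, 6.41 and 6.41 in AML, against 7.0, 7.15 and 7.39 in control. The AML arrays differed by 0.01 at most, and Gla fell by 0.77 (SE 0.11, 1.71-fold lower, adjusted p = 0.00684), a call kept in all 13 alternatives.

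Manba, the beta-mannosidase gene, went the other way. It stood at 5.81, 5.82 and 5.89 in AML, against 5.44, 5.49 and 5.44 in control, where the mean of 5.46 was at or under the level of odorant and pheromone receptor genes (5.51), taken here as the level of dim genes. The groups did not overlap and Manba rose by 0.38 (SE 0.07, adjusted p = 0.0168), or by 0.28 relative to the median gene. With median centring it did not pass (difference 0.26, adjusted p = 0.0616), nor without AML 2, control 2 or control 3 (adjusted p 0.0541 to 0.0745). The same was so with the replicate number as a block (adjusted p = 0.0866).

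The rest of the glycan-degrading genes did not pass. Gusb, the beta-glucuronidase gene, had 7.57 ± 0.22 in AML and 7.19 ± 0.12 in control with no overlap (adjusted p = 0.0924), and passed upward under quantile normalization (adjusted p = 0.0262), with array weights (0.00987) and without AML 3 (0.0224). Naglu, of heparan sulfate breakdown, also had all AML values above control (adjusted p = 0.143). Man2b1, Fuca1 and Arsb, which remove mannose, fucose and sulfate, had all AML values below control, with differences of -0.45, -0.35 and -0.52 (adjusted p 0.075 to 0.107), and each of them fell with array weights (adjusted p 0.0222 to 0.0426). Gaa, Hexa, Neu1 and Arsa overlapped between groups, with differences from -0.21 to 0.14. Thus 4 of the 11 had AML below control without overlap, 3 had AML above, and 4 overlapped. Among genes at or above the median level such separation was found downward in 22.3% and upward in 23.3%.

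Among lipid hydrolases and their activators, 2 of 6 fell and 0 rose (0 at an unadjusted p under 0.05), with a median difference of -0.50. Both that fell are activator genes. Psap encodes prosaposin, which is cut into the saposins that present sphingolipids to their hydrolases. It had 10.69, 9.85 and 10.06 in AML, against 10.95, 11.16 and 11.05 in control. The groups were separate but AML 1 lay near the controls, and Psap fell by 0.85 (SE 0.21, 1.81-fold lower, adjusted p = 0.0445). Its call was lost with the replicate number as a block and without any single array but AML 1 (adjusted p 0.0731 to 0.153).

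Gm2a encodes the activator that hands ganglioside GM2 to hexosaminidase A. Its values were 7.39, 7.26 and 7.16 in AML, against 7.74, 7.76 and 7.68 in control, separate on all arrays. Gm2a fell by 0.45 (SE 0.08, adjusted p = 0.019), not under quantile normalization (adjusted p = 0.0501) or without AML 2, control 2 or control 3 (adjusted p 0.0632 to 0.0915). With the replicate number as a block it did not pass either (adjusted p = 0.0671). The hydrolases themselves did not pass. Lipa, lysosomal acid lipase, had 8.17, 7.35 and 7.19 in AML, against 8.22, 8.36 and 8.26 in control (adjusted p = 0.0985), and without AML 1 it fell by 1.01 (adjusted p = 0.00525). Asah1, acid ceramidase, differed by -0.54 (adjusted p = 0.0618) and fell under 3 of 13 alternatives. Ppt1, which removes palmitate from proteins, and Smpd1, acid sphingomyelinase, differed by -0.10 and 0.00 (adjusted p 0.327 and 0.993).

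The lysozymes, which cut bacterial cell walls, showed, with Scarb2, the largest differences among the 35. Macrophages, monocytes and granulocytes are known to make the product of Lyz2. Lyz2 had 9.79, 9.22 and 9.59 in AML, against 10.97, 11.01 and 11.13 in control. Lyz1 had 7.95, 7.40 and 7.66 in AML, against 9.02, 8.98 and 9.19 in control. Both genes were lowest on AML 2, and all AML values lay at least 1 unit below the controls. Lyz2 fell by 1.5 (SE 0.15, 2.83-fold lower, adjusted p = 0.00197) and Lyz1 by 1.40 (SE 0.14, 2.64-fold lower, adjusted p = 0.00236), in all 13 alternatives.

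Lyz1 and Lyz2 are close paralogs that neighbour each other on chromosome 10 with 0 coding genes between them. The value of Lyz2 minus that of Lyz1 was 1.84, 1.82 and 1.94 on the AML arrays and 1.94, 2.02 and 1.94 on the control arrays. Signal shared between their probes cannot be told apart here, so they may not be 2 separate measurements. Their 300-base promoter windows matched at 249 of 302 aligned columns (82.5%) and held no CACGTG. The 250 bases before the start are shown for the pair, in which no letters are marked.
Lyz2, GRCm38.p6 chr10:117282273-117282522, minus strand: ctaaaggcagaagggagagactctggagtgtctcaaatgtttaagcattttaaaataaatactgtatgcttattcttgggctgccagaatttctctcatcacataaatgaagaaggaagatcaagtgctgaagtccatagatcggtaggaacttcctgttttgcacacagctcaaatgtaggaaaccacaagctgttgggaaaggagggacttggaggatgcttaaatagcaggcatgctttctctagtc
Lyz1, GRCm38.p6 chr10:117292869-117293118, minus strand: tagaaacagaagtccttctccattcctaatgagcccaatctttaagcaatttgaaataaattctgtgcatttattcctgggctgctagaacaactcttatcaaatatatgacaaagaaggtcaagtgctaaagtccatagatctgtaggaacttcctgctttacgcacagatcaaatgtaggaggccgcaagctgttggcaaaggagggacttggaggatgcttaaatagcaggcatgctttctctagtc
Beside them, Tpp1, the tripeptidyl peptidase gene, had 7.84 ± 0.17 in AML and 8.15 ± 0.12 in control (adjusted p = 0.113), and Grn, the gene of progranulin, which is processed in lysosomes, had 7.73 ± 0.25 in AML and 8.10 ± 0.14 in control (adjusted p = 0.129).

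**Figure D2:**
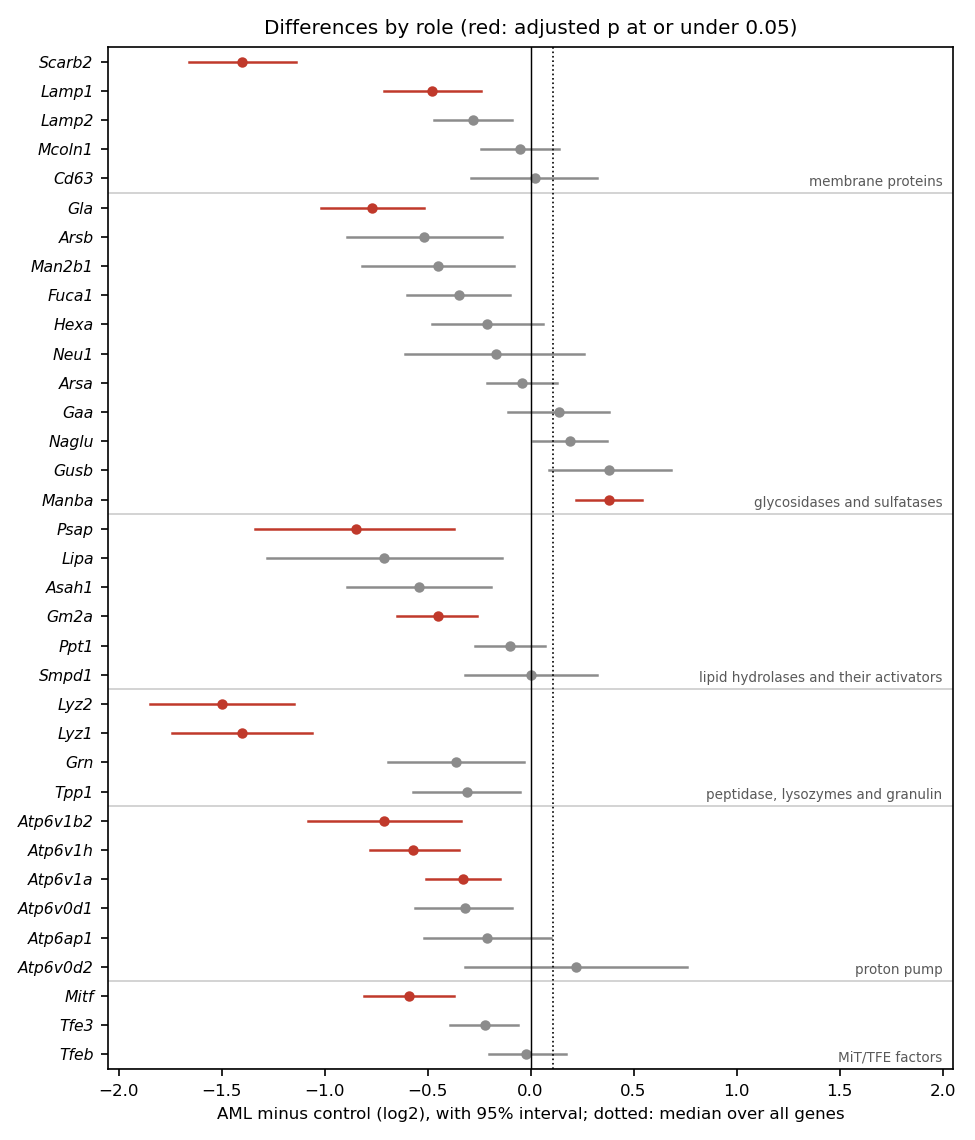
AML minus control difference (horizontal axis, log2) of each of the 35 genes with its 95% interval, ordered within each role; red marks an adjusted p at or under 0.05, the solid line is 0 and the dotted line the median over all genes (+0.11). Falls range from 0.33 (Atp6v1a) to 1.5 (Lyz2), and Manba at +0.38 is the one red point to the right.

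Of 6 listed pump genes, 3 fell and 0 rose (0 at an unadjusted p under 0.05), and the median difference was -0.33. All 3 belong to V1, the cytosolic sector that splits ATP. Atp6v1b2, subunit B, had 7.93, 7.51 and 7.43 in AML, against 8.13, 8.39 and 8.48 in control, a fall of 0.71 (SE 0.16, 1.64-fold lower, adjusted p = 0.0335). Atp6v1h, the regulatory subunit H, had 6.39, 6.56 and 6.49 in AML, against 6.99, 6.96 and 7.19 in control, a fall of 0.57 (SE 0.09, adjusted p = 0.0121). The catalytic subunit A gene, Atp6v1a, had 6.44, 6.30 and 6.30 in AML, against 6.62, 6.67 and 6.74 in control, a fall of 0.33 (SE 0.08, adjusted p = 0.0396). None of the 3 genes had overlapping groups. Atp6v1h kept its call without any single array, Atp6v1a lost it without each of the 6 (adjusted p 0.0565 to 0.139), and Atp6v1b2 lost it without AML 2, AML 3, control 2 or control 3 (adjusted p 0.0553 to 0.125). With the replicate number as a block, none of the 3 passed (adjusted p 0.0531 for Atp6v1h, 0.133 for Atp6v1a and 0.111 for Atp6v1b2).

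Subunit d of the membrane sector V0 has a general form, d1, and a form, d2, known from osteoclasts, kidney and some macrophages. Atp6v0d1 had 7.90, 7.87 and 7.80 in AML, against 8.02, 8.15 and 8.36 in control, without overlap but not past the threshold (difference -0.32, adjusted p = 0.0813, and 0.0374 with array weights). Atp6v0d2 had 5.03, 4.34 and 4.97 in AML, against 4.94, 4.35 and 4.40 in control. Its arrays split within both groups, both means were under the level of dim genes, and its difference of +0.22 has an interval from -0.32 to 0.76. Of 5 osteoclast markers 0 passed and 1 differed at an unadjusted p under 0.05, and all 5 had both group means at or under the dim level. Oscar stood at 5.43 ± 0.06 in AML and 5.26 ± 0.08 in control, and Ocstamp at 5.01 ± 0.04 in AML and 5.17 ± 0.04 in control. Atp6ap1, the accessory subunit Ac45, stood at 8.23 ± 0.23 in AML and 8.44 ± 0.14 in control (adjusted p = 0.289).

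A wider list of pump subunits and assembly factors, chosen with earlier results of these data known, was counted beside these. Of 24 measured, 4 fell (16.7%) and 1 rose. Over all genes 6.25% fell and 4.49% rose, and among genes at or above the median level 11.2% and 5.09%. Atp6v1d, subunit D of the rotating stalk, had 7.67, 7.64 and 7.56 in AML, against 8.56, 8.66 and 8.74 in control, and fell by 1.03 (2.04-fold lower, adjusted p = 0.000822). Atp6v1g1 and Atp6v1c1, stalk subunits G and C, fell by 0.40 and 0.62 (adjusted p 0.016 and 0.0499), and Dmxl1, which helps the sectors assemble, by 0.58 (adjusted p = 0.00757). Ccdc115, another assembly factor, rose by 0.47 (adjusted p = 0.0357), not with median centring (0.0861). Atp6v1d and Dmxl1 kept their calls in all 13 alternatives. Atp6v1g1 and Atp6v1c1 lost theirs under quantile normalization (adjusted p 0.054 and 0.0773) and without some single arrays, and Ccdc115 without each array but AML 3 (0.0546 to 0.135). The 4 falls became 2 without AML 1, control 2 or control 3.

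Taking both lists, 6 of 13 V1 subunit genes fell and 0 of 9 V0 genes did in limma, while at an unadjusted p under 0.05 these numbers were 7 and 3. Over all genes 6.25% fell and 11.8% were lower at that unadjusted p. Among genes at or above the median level these shares were 11.2% and 20.4%. The V1 count was 3 without AML 1, 3 without AML 2, 4 under quantile normalization, 2 without control 2 and 2 without control 3. With the replicate number as a block it was 1. It was 7 with median centring, 7 with the filter for genes at or above the median level and 7 with array weights. The V0 count in these fits was 1, 1 and 2 in turn. A difference between the sectors was not tested. The median difference was -0.33 in V1 and -0.12 in V0. The alternative forms Atp6v1b1, Atp6v1c2, Atp6v1g3, Atp6v0a4, Atp6v0e2 and Atp6v0d2 had both group means under the dim level. Among the 10 V1 genes and 6 V0 genes above it, 8 and 5 had differences below 0, with median differences of -0.37 and -0.21.

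**Figure D3:**
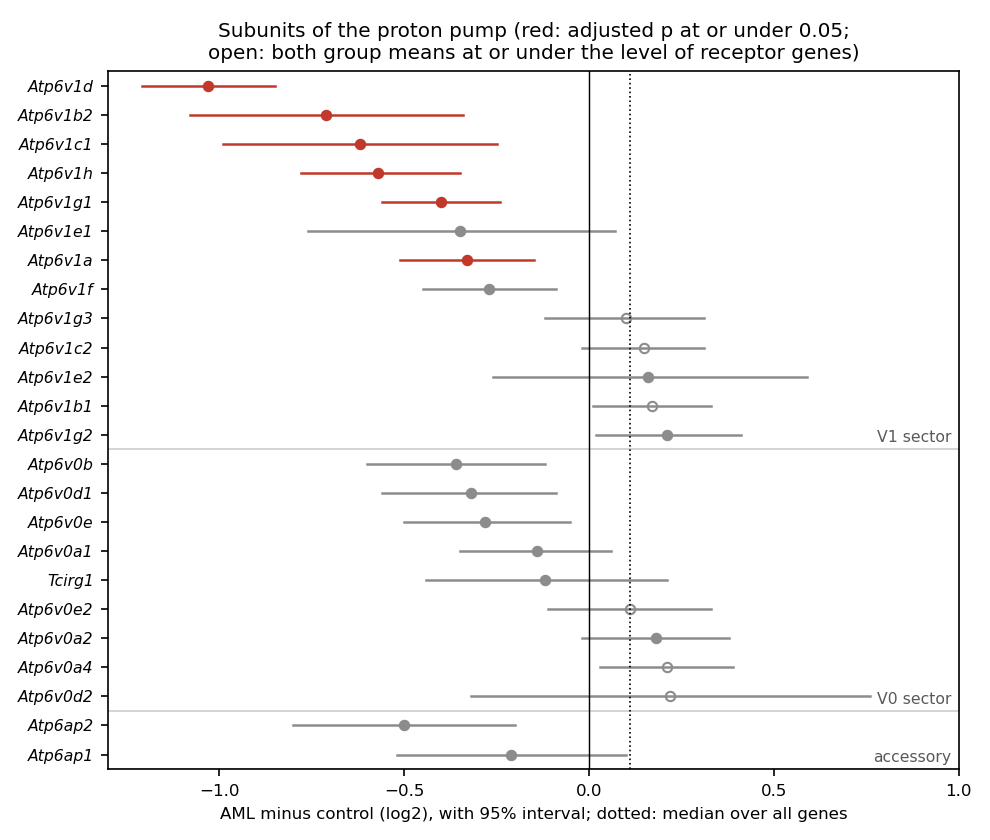
AML minus control difference (horizontal axis, log2) with its 95% interval for each measured gene of the proton pump, by sector; red marks an adjusted p at or under 0.05, open circles genes with both group means at or under the dim level, and the dotted line the median over all genes (+0.11). The 6 red points are all V1 genes, from Atp6v1d at -1.03 to Atp6v1a at -0.33, and the 3 lowest V0 genes lie between -0.36 and -0.28 in grey.

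Of the 3 listed MiT/TFE factors, Mitf fell. Mitf, best known from pigment cells, osteoclasts and mast cells, had 5.68, 5.78 and 5.86 in AML, against 6.22, 6.40 and 6.47 in control. The groups were separate, and the fall was 0.59 (SE 0.09, 1.51-fold lower, adjusted p = 0.0118), lost without control 2 (adjusted p = 0.0634) or control 3 (0.0545). Basophil and mast cell markers stood lower in the same sorts, with 4 of 5 fallen and a median difference of -1.95. The log2 of their summed linear signals was 10.20 to 10.52 in AML and 11.77 to 12.23 in control, and their part in the values of Mitf was not tested.

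Tfeb, the factor that gives its name to the lysosomal programme, had 6.18, 6.15 and 6.01 in AML, against 6.08, 6.17 and 6.13 in control. The arrays overlapped, and the difference of -0.02 has an interval from -0.20 to 0.17. Tfe3 had 5.73, 5.84 and 5.82 in AML, against 5.99, 6.07 and 6.0 in control. Its groups were separate, but the difference of -0.22 did not pass (adjusted p = 0.086), and it fell under 3 of 13 alternatives (adjusted p 0.0243 to 0.0466). TFEB is held in the cytosol by the kinase complex mTORC1 and released by the phosphatase calcineurin, a control at the protein level that an array does not measure.

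Of 21 genes listed with that control, again chosen with earlier results known, 1 fell and 0 rose. At an unadjusted p under 0.05, 9 were lower and 2 higher. The 2 higher were Tfec, a further MiT/TFE factor, and Zkscan3, also a transcription factor, neither a part of mTORC1 or calcineurin. Tfec had 7.29, 7.26 and 6.88 in AML, against 6.57, 6.56 and 6.92 in control, with overlap (difference +0.46, adjusted p = 0.0872). Zkscan3 differed by +0.30 (adjusted p = 0.103). The share that fell was 4.76%, against 6.25% of all genes and 11.2% of those at or above the median level, to which 19 of the 21 belong. With 1 fall the list cannot be set apart from these shares. At an unadjusted p under 0.05, 11.8% of all genes were lower, and 20.4% of those at or above the median level. All 3 AML values lay below all 3 control values in 10 of the 21, against 22.3% of genes at that level. The gene that fell was Fnip2, a partner of folliculin. It had 5.65, 5.46 and 5.72 in AML, against 6.27, 6.58 and 6.49 in control (a fall of 0.84, adjusted p = 0.00581). Mtor stood at 6.13 ± 0.04 in AML and 6.12 ± 0.10 in control (adjusted p = 0.888). Falls in this list numbered 6 with array weights, 4 with median centring and 4 among genes at or above the median level.

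Other lysosomal genes, 114 measured of 124 listed with the pump and control lists among them, showed 23 falls and 2 rises, with a median difference of -0.16. The share that fell was 20.2%, against 6.25% of all genes. Among genes at or above the median level, to which 104 of the 114 belong, 11.2% fell. The falls numbered 14 without AML 2 and 11 without control 2 or control 3. Of 24 other hydrolases 9 fell (37.5%) and 0 rose (0 at an unadjusted p under 0.05). Naaa, an amidase of lipid amides, had 5.94, 5.82 and 5.90 in AML, against 7.81, 7.70 and 7.92 in control. At a fall of 1.93 (3.80-fold lower, adjusted p = 0.000191) it changed more than any of the 35 listed genes. Ids, a sulfatase of heparan and dermatan sulfate, fell by 0.93, Pld4, a nuclease of endolysosomes, by 0.92 and Prcp, a carboxypeptidase, by 0.77 (adjusted p 0.00255 to 0.00895). The 9 falls became 6 without AML 2 or control 1 and 5 without control 2 or control 3.

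Of 28 other membrane proteins 7 fell and 0 rose (0 at an unadjusted p under 0.05). The share that fell was 25.0%, against 6.25% of all genes and 11.2% of those at or above the median level. Slc11a1, a metal transporter of phagocyte lysosomes, fell by 1.39 (adjusted p = 0.00639), Litaf by 0.85, Tmem106b by 0.69 and Cd164 by 0.43 (adjusted p 0.00189 to 0.0143). The count was 4 without AML 2 and 3 without control 2 or control 3. Of 17 genes of sorting to the lysosome 2 fell and 1 rose. The share that fell, 11.8%, was near the 11.2% of genes at or above the median level, to which all 17 belong. M6pr, a receptor that carries mannose-6-phosphate enzymes, fell by 0.46 (adjusted p = 0.0413), Plekhm1, an adaptor of late endosome fusion, by 0.45 (0.0368), and Nagpa, which finishes the mannose-6-phosphate tag, rose by 0.38 (0.0283). The rise of Nagpa was lost with median centring (adjusted p = 0.117) and without each array but AML 3 (0.0654 to 0.104), the 2 falls under quantile normalization (0.0985 for M6pr and 0.0641 for Plekhm1), and the 2 falls became 0 without AML 2, AML 3, control 2 or control 3.

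Most markers of macrophages, monocytes and neutrophils also stood lower in the AML sorts. Of 11 macrophage markers 10 fell, with a median difference of -1.07, where 11.2% of genes at or above the median level fell. Their summed signals were 10.80 to 11.43 in AML and 11.99 to 12.19 in control, and 0 of the 11 had a group mean at or under the dim level. C1qb, of the complement component C1q, stood at 8.56 ± 0.45 in AML and 9.71 ± 0.13 in control, and Cd68, itself a lysosomal glycoprotein, at 9.01 ± 0.39 in AML and 9.80 ± 0.21 in control (adjusted p 0.02 and 0.0516). Of 8 monocyte markers 6 fell, with summed signals of 12.23 to 12.73 in AML and 12.39 to 12.56 in control. That sum is led by Ly6c2, which stood at 12.27 ± 0.30 in AML and 11.95 ± 0.10 in control (adjusted p = 0.187), while Ms4a6c fell by 1.31 (adjusted p = 0.00218). Of 9 neutrophil markers 9 fell, with summed signals of 12.81 to 13.17 in AML and 14.43 to 14.67 in control. The macrophage count was 6 without AML 2, 2 without control 2 and 2 without control 3.

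The other marker lists were counted in the same way. Of 5 eosinophil markers 3 fell, of 5 dendritic cell markers 2, of 4 erythroid markers 2 and of 4 B cell markers 3. Over all genes 6.25% fell and 4.49% rose, and among genes at or above the median level 11.2% and 5.09%. Of 5 granulocyte-monocyte progenitor markers 1 rose and 0 had a difference below 0. At an unadjusted p under 0.05, 3 of these 5 were higher, against 18.9% of genes at or above the median level. Of 5 T and NK cell markers 0 passed and 2 were higher at an unadjusted p under 0.05, as were 21.0% of all genes. These 2, Cd3e and Klrb1c, are among the 4 of this list with both group means at or under the dim level. The part of these cell types in the lysosomal values was not tested. In sorted cells measured in bulk, fewer cells of a type and less RNA per cell cannot be told apart.

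The lysosomal genes also varied among the AML arrays. Of the 35, 26 (74.3%) had their highest AML value on array 1, against 26.1% of all genes and 36.1% of genes at or above the median level. The same held for 9 of 11 macrophage markers. The lowest AML value was on array 3 in 19 of the 35 (54.3%). This was so in 40.5% of all genes and 57.0% of genes at or above the median level. Genes on 1 array are not independent, so these shares are a description. The median deviation from the control mean over the 35 genes was -0.19, -0.33 and -0.41 on AML 1, 2 and 3 in turn, against -0.09 to 0.08 on the control arrays. Over macrophage markers it was -0.64, -1.03 and -1.22 on AML 1, 2 and 3 in turn, against -0.09 to 0.09 on the control arrays. Some other lists shared this order. Granulocyte-monocyte progenitor markers had median levels of 9.44, 9.14 and 8.85 on AML 1, 2 and 3, against 8.57 to 9.19 on the control arrays. Erythroid markers had 6.11, 6.08 and 5.77, against 6.64 to 6.76. The neutrophil, monocyte and megakaryocyte lists ran in other orders. Neutrophil markers were lowest on AML 1, at -1.93, -1.35 and -1.51 on AML 1, 2 and 3 in turn, against -0.16 to 0.13 on the control arrays. Monocyte markers were highest on AML 3, at -1.01, -1.24 and -0.77 on AML 1, 2 and 3 in turn, against -0.05 to 0.10 on the control arrays. Megakaryocyte markers too were highest on AML 3, at 0.20, -0.18 and 0.65 on AML 1, 2 and 3 in turn, against -0.13 to 0.19 on the control arrays. The SD over the AML arrays was larger than that over the control arrays in 28 of the 35 genes (80.0%, against 61.9% of all genes).

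**Figure D4:**
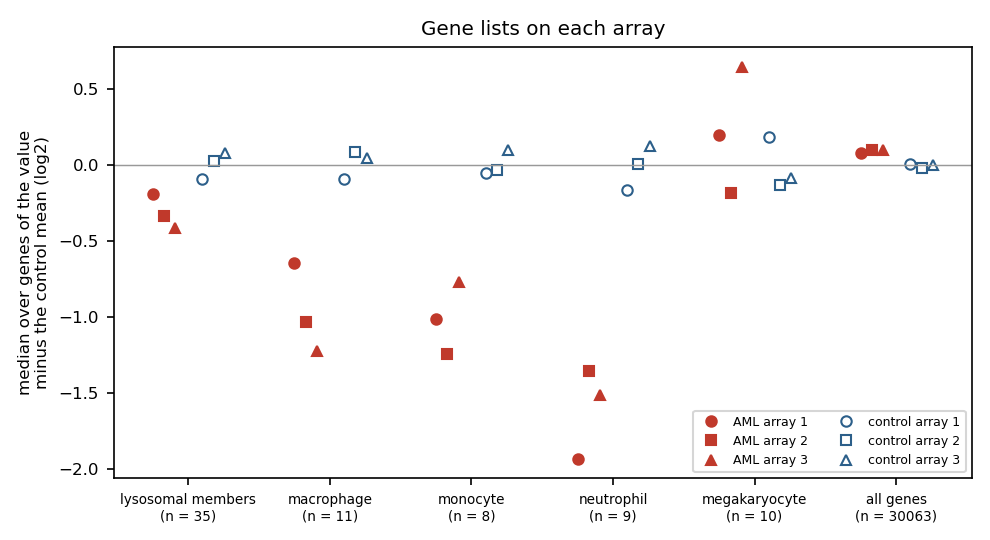
Median over the genes of a list of the value minus the control mean (vertical axis, log2) on each array, with AML arrays filled and red on the left and control arrays open and blue on the right of each list. The lysosomal genes and the macrophage markers both lie below the controls on all 3 AML arrays and highest on AML 1, whereas neutrophil markers lie lowest on AML 1 and monocyte and megakaryocyte markers highest on AML 3.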

How the data were processed

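The deposited values are log2 expression values that the authors made with RMA, per the submitters' processing notes. RMA is known to subtract background, to equalise the distributions of arrays and to summarise probes, so a shift common to all genes would be hidden. A genome build was not given in the sources used here. Of 72688 rows, 30604 carried 1 gene symbol in the platform annotation. Symbols were updated through RefSeq (GRCm38.p6, for names and neighbours; 2 did not match), and the brightest row of a gene was kept. This left 30063 genes, of which 418 share all their values with another gene (0 of the 35).

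The values as given were tested with limma (lmFit and eBayes), AML minus control, as a two-sided test with Benjamini-Hochberg adjusted p over all genes. The dim level is the 95th percentile of the means of 1528 olfactory and vomeronasal receptor genes (5.51). The members and lists were chosen with earlier results of these data known. Members past the threshold, the MiT/TFE factors, the lysozymes and both d subunits are given by array, other lysosomal genes by the 4 smallest p in each direction of a list, and markers of 4 cell types by their 2 brightest genes. Genes named beyond these rules were picked with their values in view. Promoter sequences are RefSeq's and were aligned with Biopython (match 1, mismatch -1, gap opening -3, gap extension -1). In data simulated for this comparison (30063 genes), calls were made for 12 of 50 genes given a 1.5-fold change and 40 of 50 given 2-fold. The count was 47 of 50 at 4-fold and 49 of 50 at 8-fold, and 5 calls were false. On the measured arrays 3230 genes passed, and the SD was larger over the AML arrays in 61.9% of genes. Whether the simulated counts hold for the measured arrays was not tested. The tools were R 4.3.3, limma 3.58.1, version 1.17.8 of data.table, Python 3.11.15, pandas 2.3.3, numpy 2.4.6, Biopython 1.88 and matplotlib 3.10.9.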

Additional observations from a re-analysis of the deposited data

How the results depend on the processing

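The 13 alternatives were median centring, renewed quantile normalization, the replicate number as a block, a filter for genes at or above the median level, averaged rows, a mean-variance trend, array weights and each array left out. For the 12 of the 35 genes past the threshold, 121 of 156 repeats kept the call, 35 lost it and 0 changed direction. The share of all genes that passed moved too: lower and higher, it was 10% and 16.1% with array weights, 2.86% and 0.685% with the replicate block, 9.02% and 1.68% with median centring, 6.99% and 4.60% under quantile normalization, and 2.60% to 6.54% and 0.615% to 5.45% with 1 array left out. Falls among the 35 numbered 18 with array weights, 5 with the replicate block and 5 to 11 with 1 array left out. Rises numbered 0 with median centring, 2 under quantile normalization, 0 with the block, 3 with array weights, a lower share than over all genes, and 0 to 2 with 1 array left out. Among the other lysosomal genes falls numbered 11 with the block and 11 to 20 with 1 array left out. Rises there numbered 0 with median centring, 4 under quantile normalization, 0 with the block, 6 with array weights and 0 to 5 with 1 array left out. Leaving out an array leaves fewer samples; the other causes were not tested. Deviations of the AML and control arrays numbered 1, 2 and 3 correlated at -0.361, 0.142 and -0.29 across genes. Deviations within groups of 3 arrays depend on one another, so these values cannot show whether equal numbers were paired. The sample titles do not say.

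Genes near no difference changed sign without passing. Cd63 stood at -0.10 with median centring and between -0.06 and 0.14 with 1 array left out. Smpd1 stood at 0.00 under quantile normalization and between -0.14 and 0.11 with 1 array left out. Ppt1 stood at 0.06 under quantile normalization. Tfeb stood at 0.01 with array weights and between -0.05 and 0.04 with 1 array left out, and Neu1 between -0.29 and 0.02. Dim genes such as Atp6v0d2 were not shown to be above background.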
